A study of Zea mays with 96 samples.

Results

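The genes *viviparous1* (*vp1*, Zm00001d042396), *colored aleurone1* (*c1*, Zm00001d044975), and *colored1* (*r1*, Zm00001d026147) were followed by their identifiers through all 96 libraries of a maize (*Zea mays*) endosperm RNA-seq experiment, 3 genes of the 46430 in the count tables. Immature endosperm of W22, an inbred line, was collected at 8, 12, and 16 d after pollination (DAP) from 8 homozygous genotypes: WT, the single mutants *nkd1*, *nkd2*, and *o2*, the double mutants *nkd1 nkd2*, *nkd1 o2*, and *nkd2 o2*, and the triple mutant *nkd1 nkd2 o2*. The mutant alleles were *nkd1-Ds*, an insertion of a *Ds* transposon, *nkd2-null*, and *o2*, and all genotypes were drawn from selfed progeny of a triple heterozygote, so WT and mutants share that parentage. Each of the 24 groups had 4 libraries from 4 independent ears, and a library pooled 3 endosperms, so the values describe whole endosperm and not the aleurone alone. In such bulk samples, fewer cells of a type and less RNA per cell cannot be told apart.

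Anthocyanin in the maize kernel is made in the aleurone, the outermost cell layer of the endosperm. C1, a MYB transcription factor, and R1, a basic helix-loop-helix transcription factor, act as partners that switch on the genes of the anthocyanin enzymes, and both are needed for a colored aleurone. VP1 is a transcription factor of seed maturation that works with abscisic acid, and *c1* in the aleurone depends on it. NKD1 and NKD2 are duplicate zinc finger factors of the INDETERMINATE DOMAIN family that limit the number of aleurone layers and promote aleurone differentiation. O2 is a bZIP factor that drives storage protein genes of the starchy endosperm.

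Depth was 31327665 to 68052826 reads on genes per library. The targeted transcripts separated the labelled genotypes: *nkd2* stayed at or below 0.889 CPM (reads on the gene scaled to a common library size) in every library of an *nkd2* mutant and at or above 7.35 CPM in the others, and *o2* was at or below 1.43 CPM against at least 15.1 CPM. For *nkd1*, whose *Ds* allele is still transcribed, mutants and others separated at 8 and 12 DAP and overlapped at 16 DAP. The starchy endosperm markers that could be matched, *zp15*, *fl2*, and *fl4* (3 of 8 listed), were counted at every timepoint but not in every library. At 8 DAP they had no read in 1, 12, and 5 libraries, and *fl2* had none in 9 at 12 DAP. Their sum in the triple mutant at 8 DAP was 0 to 0.158 CPM. No aleurone marker other than *nkd1* and *nkd2* themselves, and no transfer layer, embryo, or maternal marker could be matched by symbol, so admixture of those tissues was not tested. Reads of W22 were placed on gene models of another inbred, B73, and the reference entry for *r1* lists *Lc*, *Sn*, and *hopi* among its synonyms, so reads of near-identical *r1* copies may have been counted here or lost.

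The first question was whether *r1*, whose identifier lies 34 numbers past that of *nkd2*, changed with the *nkd2* allele in every genotype. It did so in all 12 comparisons: *r1* was near 0 in every genotype with normal *nkd2* and was expressed in every genotype with *nkd2-null*, whatever the alleles at *nkd1* and *o2*. The 48 libraries with *nkd2-null* had 160 to 3046 *r1* reads. The 48 libraries with normal *nkd2* had 0 to 34, of which 28 had none and 46 had 5 or fewer. The 2 sets of libraries did not overlap at any timepoint.

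At 8 DAP, replicates 1 to 4 of WT had 0, 1, 1, and 0 *r1* reads, those of *nkd1* had none, those of *o2* had 1, 1, 0, and 5, and those of *nkd1 o2* had 1, 0, 0, and 0. The same 4 backgrounds with *nkd2-null* added had 954, 906, 1548, and 1293 reads in *nkd2*, 1019, 1752, 2757, and 2840 in *nkd1 nkd2*, 1241, 1563, 1323, and 949 in *nkd2 o2*, and 2871, 2728, 2494, and 3046 in *nkd1 nkd2 o2*. Every *nkd2-null* library was thus far above every other library, and the triple mutant libraries lay closest together among the 4 *nkd2-null* groups. As the ratio of summed reads at equal library size, *nkd2* was 2193-fold above WT (95% counting interval 607 to 18114), *nkd2 o2* was 621-fold above *o2* (301 to 1545), and the triple mutant was 11432-fold above *nkd1 o2* (2051 to 451570). The *nkd1 nkd2* level was at least 2369-fold higher than that of *nkd1*, where a floor of 3 reads over the group stood in for 0. Intervals and floors cover counting error only.

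**Figure D1:**
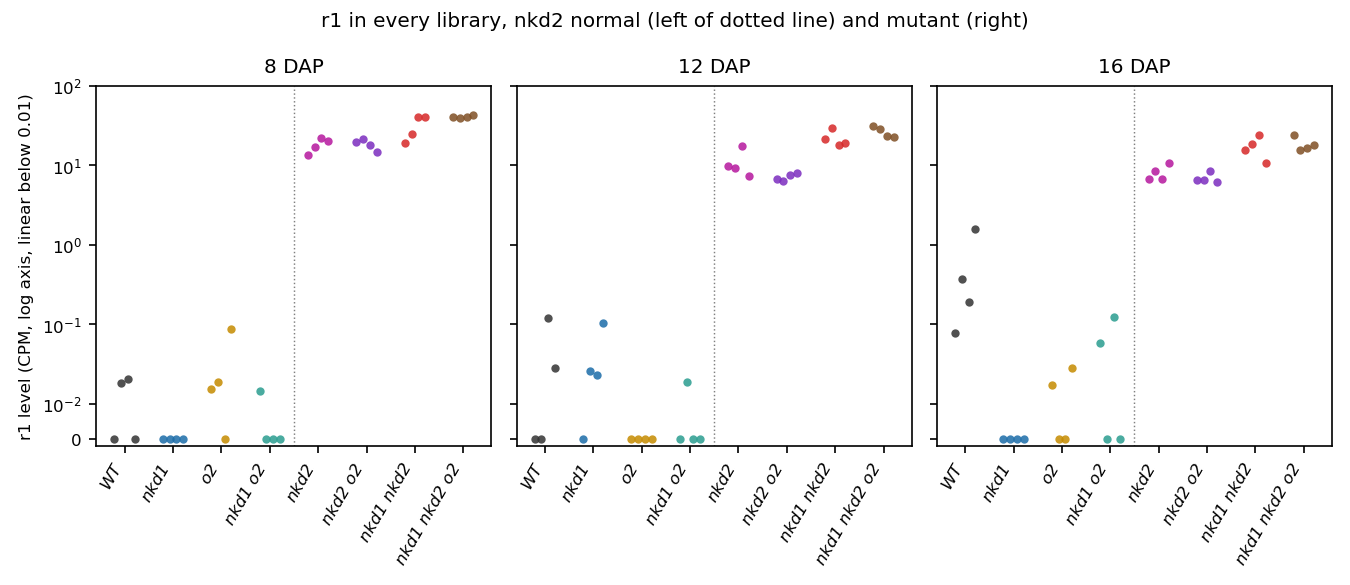
Level of *r1* (CPM, log axis that is linear below 0.01) in each library by genotype at 8, 12, and 16 DAP, with 1 point per library and a dotted line between genotypes with normal *nkd2* (left) and *nkd2-null* (right). All 48 *nkd2-null* libraries lie at 6.21 CPM or more and all 48 others at 1.59 CPM or less.

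At 12 DAP, the *nkd2* libraries had 380, 305, 624, and 259 *r1* reads against 0, 0, 5, and 1 in WT. The *nkd1 nkd2* libraries had 1021, 1519, 1041, and 1109 against 0, 1, 1, and 4 in *nkd1*, and the *nkd2 o2* libraries had 453, 321, 453, and 360 against none in *o2*. The triple mutant libraries had 1741, 1807, 1279, and 1308 against 0, 1, 0, and 0 in *nkd1 o2*. Every *nkd2-null* library was again above every other, with fewer summed reads in each *nkd2-null* group than at 8 DAP. The ratios were 274-fold (126 to 749) over WT, 610-fold (280 to 1664) over *nkd1*, at least 555-fold over *o2*, and 5583-fold (1002 to 220566) over *nkd1 o2*.

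At 16 DAP, WT had 2, 10, 5, and 34 *r1* reads, more than at the earlier timepoints, and *nkd2* had 160, 280, 251, and 321. The *nkd1 nkd2* libraries had 784, 866, 794, and 471 against none in *nkd1*, and the *nkd2 o2* libraries had 318, 301, 374, and 238 against 1, 0, 0, and 1 in *o2*. The triple mutant libraries had 1306, 932, 908, and 992 against 3, 0, 5, and 0 in *nkd1 o2*. The groups still did not overlap, although the gap to WT was smaller than to the other genotypes. The ratios were 16.0-fold (12.1 to 21.7) over WT, at least 562-fold over *nkd1*, 642-fold (177 to 5308) over *o2*, and 407-fold (207 to 944) over *nkd1 o2*.

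By the quasi-likelihood test of edgeR, with P values adjusted over all genes by the Benjamini-Hochberg method, *r1* was called higher (adjusted P under 0.05, absolute log2 fold change, log2FC, above 1) in 12 of 12 *nkd2* comparisons. The largest adjusted P of the 12 was 3.16e-06, for *nkd2* against WT at 16 DAP (log2FC 3.93, SE 0.486). Of all genes tested, 0.0510% at 8 DAP, 0.0816% at 12 DAP, and 0.0908% at 16 DAP were called higher in all 4 backgrounds, and single *nkd2* comparisons called 4.63%, 5.83%, and 8.20% of genes in either direction. Averaged over the 4 backgrounds, the fitted *r1* effect was called at each timepoint, where the mean *nkd2* effect was called for 2.03%, 4.93%, and 5.77% of genes. A fitted log2FC against a group at or near 0 depends on the prior count of the fit, so the ratios of reads above stand for its size.

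WT replicate 4 at 16 DAP held 34 of the 51 *r1* reads of its group. Without it, the WT level went from 0.560 ± 0.699 CPM (SD, n = 4) to 0.216 ± 0.151 CPM (n = 3), and the fitted log2FC of *nkd2* against WT went from 3.93 to 5.23 (adjusted P 2.41e-08). The ratio of summed reads went from 16.0 to 37.8-fold (95% counting interval 23.5 to 65.1). The same library was the only one of its group with no *c1* read. Besides *r1*, 9 genes were called higher with *nkd2-null* in all 4 backgrounds at all 3 timepoints, and 6 of them (Zm00001d017354, Zm00001d021910, Zm00001d024970, Zm00001d026295, Zm00001d041399, and Zm00001d047864) had no read in that library. Zm00001d015393 had 0.796 CPM there and 7.25, 1.32, and 0.812 CPM in replicates 1 to 3, Zm00001d026104 had 3.28 CPM and 2.24, 4.75, and 1.78 CPM, and Zm00001d026293 had 0.562 CPM and 0.655, 0.264, and 0.464 CPM.

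Within the *nkd2-null* genotypes, *r1* also differed with *nkd1*. The level was 18.4 ± 3.85, 11.1 ± 4.63, and 8.19 ± 1.85 CPM in *nkd2* at 8, 12, and 16 DAP, and 18.4 ± 2.75, 7.21 ± 0.773, and 6.93 ± 1.07 CPM in *nkd2 o2* (SD, n = 4 each). It was 31.5 ± 11.3, 22.2 ± 5.0, and 17.3 ± 5.77 CPM in *nkd1 nkd2*, and 41.1 ± 1.48, 26.8 ± 4.28, and 18.8 ± 3.88 CPM in *nkd1 nkd2 o2*. The genotypes with both *nkd* mutations thus had the higher means at each timepoint, although the *nkd1 nkd2* and *nkd2* libraries overlapped at 8 and 16 DAP. In the order of all 24 group levels the 12 *nkd2-null* groups came first, each overlapping with the next, and the gap that no library crossed fell between *nkd2 o2* and WT, both at 16 DAP.

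**Figure D2:**
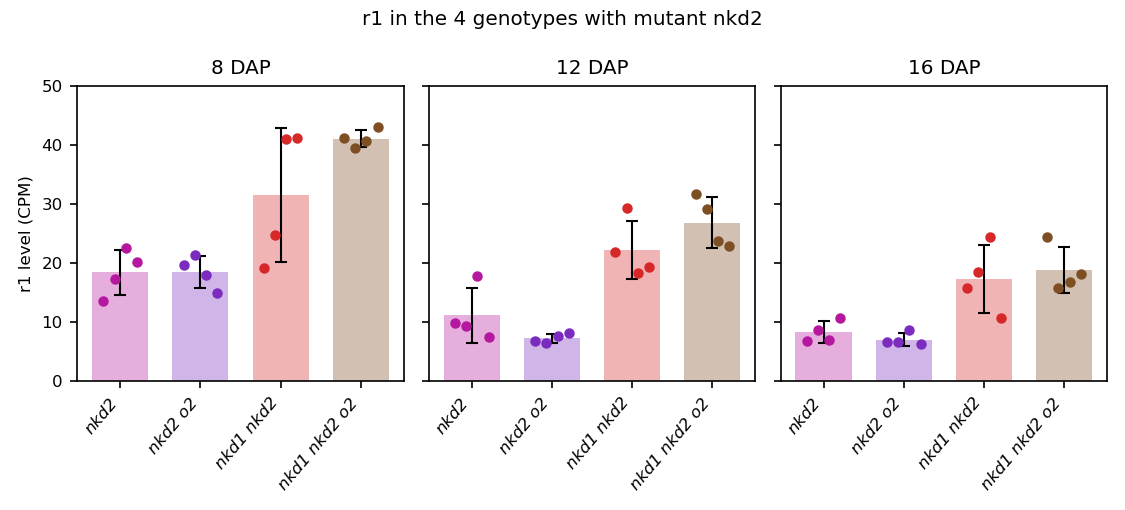
Level of *r1* (CPM, linear axis) in the 4 genotypes that carry *nkd2-null* at 8, 12, and 16 DAP, with points for libraries and bars for the mean and SD of 4. The means of *nkd1 nkd2* and the triple mutant lie above those of *nkd2* and *nkd2 o2* at each timepoint. Means run from 41.1 CPM in the triple mutant at 8 DAP to 6.93 CPM in *nkd2 o2* at 16 DAP.

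In the *o2* background, adding *nkd1* to *nkd2-null* raised *r1* with a log2FC of 1.12 (SE 0.231, adjusted P 0.00113) at 8 DAP, 1.86 (SE 0.279, adjusted P 1.59e-05) at 12 DAP, and 1.43 (SE 0.391, adjusted P 0.00570) at 16 DAP, without overlap between the groups at any timepoint. The 8 DAP value was within the fold limit without replicate 4 (log2FC 0.99), and the 16 DAP call was lost without replicate 1 (adjusted P 0.0586). With normal *o2*, *nkd1 nkd2* against *nkd2* gave 0.82 (SE 0.230, adjusted P 0.0110) at 8 DAP and 0.99 (SE 0.274, adjusted P 0.00705) at 12 DAP, below the fold limit of a call, and 1.09 (SE 0.390, adjusted P 0.0283) at 16 DAP, which was called. The 16 DAP call was lost with DESeq2 and when replicate 1, 2, or 3 was left out (adjusted P 0.103, 0.121, and 0.169). Over all genes, single *nkd1* comparisons called 5.93%, 7.81%, and 10.2% at 8, 12, and 16 DAP. No effect of *o2* on *r1* within the *nkd2-null* genotypes was called: the log2FC of *nkd2 o2* against *nkd2* was 0.02 (SE 0.229), −0.61 (SE 0.275), and −0.26 (SE 0.389), and that of the triple mutant against *nkd1 nkd2* was 0.31 (SE 0.228), 0.26 (SE 0.269), and 0.08 (SE 0.382), none of them called. Averaged over all 4 backgrounds, those with few *r1* reads included, *o2* was called lower at 12 DAP, as was either direction for 9.02% of genes. That call was lost without replicate 3 (adjusted P 0.104) or 4 (adjusted P 0.0684).

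Among genotypes with normal *nkd2*, the few *r1* reads of WT at 16 DAP set the comparisons. The *nkd1* libraries had none against 51 in WT, at least 17.1-fold lower (adjusted P 0.00416), and *o2* had 2 against 51, a ratio of 0.0211 (95% counting interval 0.00249 to 0.0803; adjusted P 7.41e-05). Without WT replicate 4, against the 17 reads of the other WT libraries, *nkd1* was at least 7.26-fold lower (adjusted P 0.0165) and the *o2* ratio was 0.0498 (0.00558 to 0.21; adjusted P 0.000968). The *nkd1* call was lost without replicate 2 (adjusted P 0.0589). At 12 DAP, *o2* had none against 6 in WT, at least 3.12-fold lower (adjusted P 0.0343), and this call was lost without replicate 2, 3, or 4 and with all 96 libraries in the fit (adjusted P 0.0585). Against WT over 3 timepoints, *r1* was thus called higher in 12 of 21 mutant comparisons, all with *nkd2-null*, and lower in 4, where all genes together were called in 8.06%, 9.29%, and 12.1% of comparisons at 8, 12, and 16 DAP.

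The size of an allele's effect on *r1* differed between the 4 backgrounds at 16 DAP for *nkd2* (adjusted P 3.52e-05), *nkd1* (adjusted P 0.000194), and *o2* (adjusted P 0.000736) by an F test that the 4 effects are equal. This test was passed by many genes: 45.8%, 28.7%, and 44.7% at 8, 12, and 16 DAP for *nkd2*, 49.0%, 27.1%, and 43.3% for *nkd1*, and 40.3%, 21.4%, and 43.7% for *o2*. Both *nkd2* at 8 DAP (adjusted P 0.0292) and *nkd1* at 8 DAP (adjusted P 0.0371) also passed for *r1*, as did *o2* at 12 DAP (adjusted P 0.0355), each lost when some replicates were left out.

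With time, *r1* fell in *nkd2-null* endosperm and rose on few reads in WT. From 8 to 16 DAP the log2FC was −1.16 (SE 0.312, adjusted P 0.000851) in *nkd2*, −1.41 (SE 0.313, adjusted P 7.52e-05) in *nkd2 o2*, and −1.13 (SE 0.307, adjusted P 0.00110) in the triple mutant, all called, and −0.87 (SE 0.306, adjusted P 0.0122) in *nkd1 nkd2*, below the fold limit. The *nkd2* call was lost without replicate 3. In WT the summed reads went from 2 at 8 DAP to 6 at 12 DAP and 51 at 16 DAP, and 16 DAP was called higher than 12 DAP (adjusted P 2.01e-05). Of those 51 reads, 34 came from 1 library. Rises on few reads were also called in *nkd1* from 8 to 12 DAP (0 to 6 reads, adjusted P 0.0480) and in *nkd1 o2* from 8 to 16 DAP (1 to 8 reads, adjusted P 0.0397). Each of these 2 was lost when some replicates were left out. Between 12 and 8 DAP, 16 and 12 DAP, and 16 and 8 DAP, 25.6%, 11.8%, and 38.7% of comparisons over all genes and genotypes were called.

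The stretch of identifiers around *r1* was examined because its number lies close to that of *nkd2*. From *nkd2* to 20 numbers past *r1* there were 48 genes, of which 27, 28, and 28 were tested at 8, 12, and 16 DAP. At 8 and 12 DAP, 2 of them were called in the same direction in all 4 backgrounds, *r1* (higher) and *nkd2* itself (lower), and at 16 DAP also Zm00001d026137 (higher). Of 43 genes numbered just below *nkd2*, a window chosen after values were seen, 26, 25, and 27 were tested at 8, 12, and 16 DAP. Of these, 3, 5, and 6 were called in 1 direction in all 4 backgrounds, among them Zm00001d026104 (higher) at all 3 timepoints. Over all 25467 genes tested at 8 DAP, 13 were called higher and 9 lower in all 4 backgrounds. The same counts were 20 and 12 of 24504 genes at 12 DAP and 22 and 6 of 24239 genes at 16 DAP. Of the 10 genes called higher in all 4 backgrounds at all 3 timepoints, *r1* included, 4 were numbered from Zm00001d026104 to Zm00001d026295 and the others lay elsewhere in the numbering. An effect of the lost NKD2 on *r1* and a difference carried by the chromosome segment around *nkd2-null* cannot be told apart in this design, since every *nkd2-null* genotype derives from the same parent.

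The genes whose 24 group levels ran most like those of *r1* were Zm00001d041399 (Pearson's r = 0.98) and Zm00001d026295 (r = 0.96), of 18642 genes with a mean of at least 1 CPM. Both were at 0 in WT at 16 DAP. The groups share genotypes and timepoints and are not independent, so these correlations are a description.

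The regulator *c1* was scarce: its count was at most 38 reads in any library and 0 in 32 of the 96. At 12 and 16 DAP it had no read in 15 of the 16 libraries of *o2* and *nkd2 o2*, and it was counted in every group with normal *o2*. At 8 DAP no comparison of *c1* was called, with at most 20 reads in a library.

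At 12 DAP the 4 libraries of WT had 0, 17, 33, and 29 *c1* reads, those of *nkd1* had 22, 29, 38, and 20, those of *nkd2* had 10, 4, 19, and 3, and those of *nkd1 nkd2* had 7, 7, 16, and 21. With *o2* added, *o2* and *nkd2 o2* had none in any library, *nkd1 o2* had 9, 19, 17, and 8, and the triple mutant had 1, 8, 1, and 4. WT replicate 1 overlapped with the *o2* libraries, and the *nkd2* and *nkd2 o2* libraries did not overlap. The *c1* level of *o2* was at least 41.0-fold lower than that of WT (0 against 79 reads, adjusted P 7.39e-05), and that of *nkd2 o2* was at least 18.7-fold lower than that of *nkd2* (0 against 36 reads, adjusted P 0.000576).

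At 16 DAP the libraries of WT had 23, 12, 13, and 0 *c1* reads, those of *nkd1* had 12, 14, 7, and 13, those of *nkd2* had 21, 36, 31, and 14, and those of *nkd1 nkd2* had 14, 15, 22, and 12. With *o2* added, *o2* had none, *nkd2 o2* had 0, 0, 4, and 0, *nkd1 o2* had 3, 12, 10, and 2, and the triple mutant had 6, 5, 0, and 0. Again WT overlapped with *o2* through 1 library, and *nkd2* and *nkd1 nkd2* lay above their *o2* counterparts in every library. The *o2* level was at least 29.7-fold lower than WT (0 against 48 reads, adjusted P 0.000268). The ratio was 0.0273 (95% counting interval 0.00730 to 0.0720) for *nkd2 o2* against *nkd2* (adjusted P 0.000590) and 0.137 (0.0650 to 0.262) for the triple mutant against *nkd1 nkd2* (adjusted P 0.0232).

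**Figure D3:**
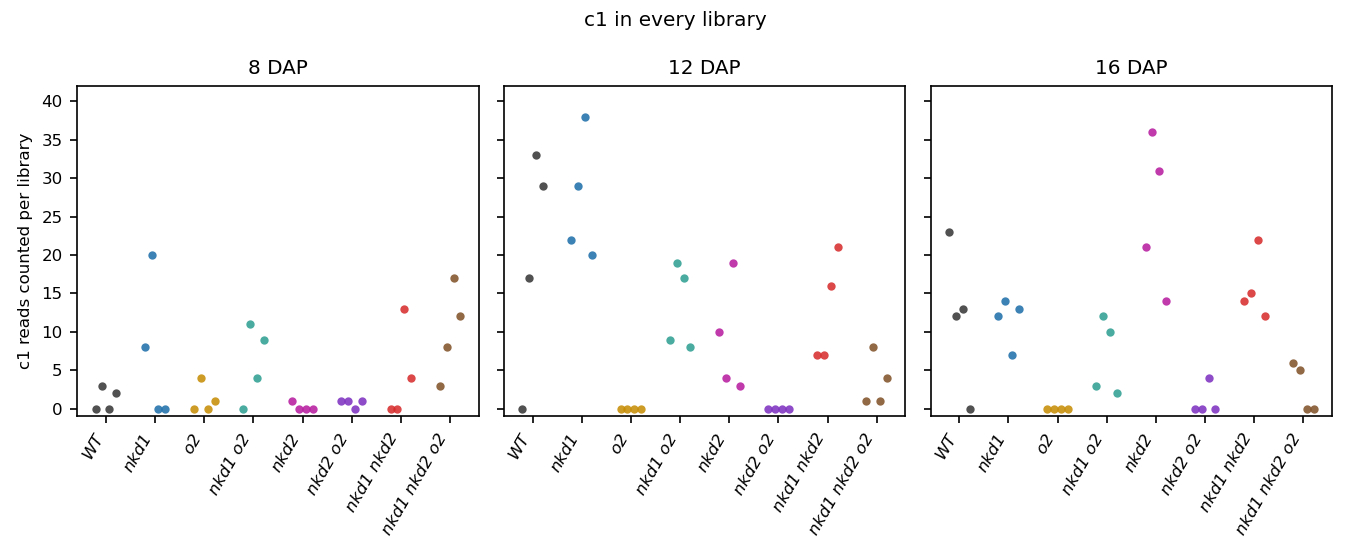
Reads counted on *c1* in each library by genotype at 8, 12, and 16 DAP (linear axis, 1 point per library). No library exceeds 38 reads, and all 4 *o2* libraries are at 0 at 12 and at 16 DAP.

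In all, *c1* was called lower in 5 of 12 *o2* comparisons, where single *o2* comparisons called 6.53%, 8.66%, and 13.2% of all genes at 8, 12, and 16 DAP. Without the 3 libraries at 16 DAP that had no *c1* read in groups where others did, WT replicate 4 and triple mutant replicates 3 and 4, the call for the triple mutant against *nkd1 nkd2* was lost (adjusted P 0.136). It was also lost without replicate 2 (adjusted P 0.0741) or 3 (adjusted P 0.161). Summed starchy endosperm markers (*zp15*, *fl2*, and *fl4*, all storage protein genes) moved with *o2* as well. At 16 DAP they came to 103959 to 107744 CPM in WT, 14710 to 15836 CPM in *o2*, and 8.32 to 372 CPM in the triple mutant. O2 drives storage protein genes, so in *o2* genotypes these markers cannot separate less starchy endosperm from the loss of O2 itself. Their part in the *c1* result was not tested.

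Within *o2* endosperm, *c1* was called higher with *nkd1* mutant in 3 comparisons. At 12 DAP, *nkd1 o2* was at least 19.7-fold above *o2* (53 against 0 reads, adjusted P 0.000748), and the triple mutant was at least 4.52-fold above *nkd2 o2* (14 against 0 reads, adjusted P 0.0144). At 16 DAP, *nkd1 o2* was at least 9.55-fold above *o2* (27 against 0 reads, adjusted P 0.00455). These 3 were the *nkd1* comparisons called of 12, where single *nkd1* comparisons called 5.93%, 7.81%, and 10.2% of all genes at 8, 12, and 16 DAP. The triple mutant call was lost without replicate 2 (adjusted P 0.125) or 4 (adjusted P 0.0671), and the 16 DAP call without replicate 2 (adjusted P 0.0554). Single *nkd2* comparisons called 4.63%, 5.83%, and 8.20% of all genes at 8, 12, and 16 DAP. For *c1*, no *nkd2* comparison of 12 was called by edgeR or DESeq2, and 1 had an unadjusted P under 0.05. With only both genotypes in the fit, *nkd1 nkd2* against *nkd1* at 12 DAP was called (log2FC −1.46, adjusted P 0.0406); without WT replicate 1 at 12 DAP, 1 was, the triple mutant against *nkd1 o2* (log2FC −2.08, adjusted P 0.0241).

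The mean effect on *c1* over 4 backgrounds was called for *o2* at 12 and 16 DAP (lower) and for *nkd1* at all 3 timepoints (higher). The *nkd1* call was lost at 8 DAP without replicate 3 (adjusted P 0.0715) and at 16 DAP without replicate 1 (adjusted P 0.126) or 2 (adjusted P 0.196). Over all genes the mean effect was called for 3.38%, 8.27%, and 9.37% of genes for *nkd1* and 6.54%, 9.02%, and 13.0% for *o2* at 8, 12, and 16 DAP. The effects on *c1* differed between backgrounds for *nkd1* (adjusted P 0.00402) and *o2* (adjusted P 0.00598) at 12 DAP and for both at 16 DAP (adjusted P 0.0155 and 0.0281), and each of these 4 was lost in some fit with a replicate left out. Against WT, *c1* was called lower in 6 of 21 comparisons: *o2*, *nkd2 o2*, and the triple mutant, at 12 and at 16 DAP, where 9.29% and 12.1% of comparisons over all genes were called (8.06% at 8 DAP). The triple mutant call at 12 DAP was lost without replicate 3 (adjusted P 0.0560) and the *nkd2 o2* call at 16 DAP without replicate 1 (adjusted P 0.0721). From 8 to 12 DAP, *c1* was called higher in WT and *nkd2*, where 25.6% of such comparisons were called over all genes, and from 8 to 16 DAP in WT, *nkd2*, and *nkd1 nkd2*, where 38.7% were. The last of these was lost without replicate 1 (adjusted P 0.0922), 2 (adjusted P 0.131), or 4 (adjusted P 0.0713).

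The gene most like *c1* over the 24 group levels was Zm00001d044999 (r = 0.87), numbered 24 past *c1*, followed by Zm00001d013827 (r = 0.86). This led, after the values were seen, to a look at genes numbered next to *c1*, with no test. At 12 and 16 DAP, *c1* had no read in 19 of 64 libraries. In those 19 libraries Zm00001d044978, 3 numbers past *c1*, lay between 0.716 and 1.97 CPM, and Zm00001d045008, 33 numbers past it, had no read at all. In the 45 libraries with *c1* reads, Zm00001d044978 reached 31.9 CPM and was at or below 2 CPM in 6, and Zm00001d045008 was at 0 in 4.

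**Figure D4:**
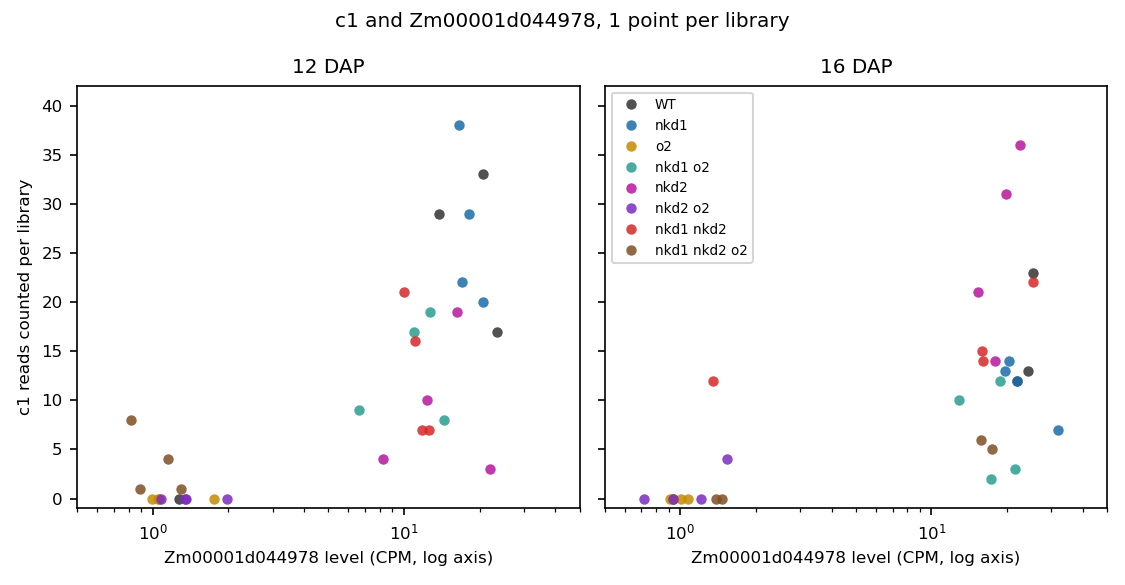
The *c1* read count (vertical, linear axis) against the level of Zm00001d044978 (horizontal, CPM on a log axis) at 12 and 16 DAP, with 1 point per library and a color for each genotype group. The 19 libraries with no *c1* read all lie at or below 1.97 CPM, and those with *c1* reads reach 31.9 CPM.

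The split ran through single groups and not only between genotypes. In WT at 12 DAP, replicate 1 (no *c1* read) had 1.27 CPM of Zm00001d044978 and the others 23.4, 20.7, and 13.8 CPM. In WT at 16 DAP, replicate 4 (no *c1* read) had 0.937 CPM and the others 25.4, 21.9, and 24.3 CPM. In the triple mutant at 16 DAP, replicates 3 and 4 (no *c1* read) had 1.46 and 1.38 CPM and the others 15.7 and 17.4 CPM. Exceptions were found. In *nkd1 nkd2* at 16 DAP, replicate 4 had 12 *c1* reads with 1.35 CPM of Zm00001d044978. In *nkd2 o2* at 16 DAP, replicate 3 had 4 *c1* reads with 1.53 CPM. All 4 triple mutant libraries at 12 DAP had *c1* reads (1, 8, 1, and 4) with only 1.29, 0.821, 0.887, and 1.15 CPM of Zm00001d044978. Among the 19 libraries with no *c1* read, Zm00001d044999 was at or below 2 CPM in 12 and reached 6.63 CPM. At 8 DAP, Zm00001d044978 had a median of 4.83 CPM (0.798 to 8.53) in the 13 libraries with no *c1* read and 6.83 CPM (0.713 to 9.64) in the 19 with *c1* reads. By genotype it was 0.713 to 0.969 CPM in *o2* and 0.737 to 1.73 CPM in *nkd2 o2*, and Zm00001d045008 was at 0 in both. Both groups also lay at or below 1.97 CPM of Zm00001d044978 at 12 and 16 DAP. At 8 DAP, WT (0.798 to 8.28 CPM) and *nkd1* (0.866 to 9.64 CPM) spanned low and high values. The *nkd1 o2*, *nkd2*, *nkd1 nkd2*, and triple mutant libraries lay at or above 3.62 CPM. The part of these neighbours in the *o2* and *nkd1* comparisons of *c1* was not tested.

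In contrast to the other 2 genes, *vp1* was expressed in all 96 libraries, with 45 to 1080 reads, and no mutant was called against WT before 16 DAP. It was called lower at 16 than at 8 DAP in 7 of 8 genotypes, and at 16 DAP it was lower than in WT in the 3 genotypes that combine *o2* with *nkd1*, *nkd2*, or both. Over all genotypes the level was 5.23 to 15.1 CPM (median 11.6) at 8 DAP, 4.08 to 10.8 CPM (median 7.36) at 12 DAP, and 1.04 to 6.53 CPM (median 2.82) at 16 DAP.

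At 8 DAP the 4 WT libraries had 10.6, 10.2, 9.37, and 13.0 CPM of *vp1*. The lowest group was *nkd1 nkd2* with 6.62, 5.23, 9.81, and 8.53 CPM, which overlapped with WT, and the highest was *nkd1 o2* with 12.4, 10.8, 15.1, and 13.9 CPM. At 12 DAP, WT had 9.62, 7.90, 10.7, and 9.25 CPM and *nkd1 nkd2* had 4.08, 6.06, 5.79, and 6.02 CPM. The groups did not overlap at 12 DAP. The log2FC of *nkd1 nkd2* against WT was −0.53 (SE 0.156, adjusted P 0.0202) at 8 DAP and −0.78 (SE 0.215, adjusted P 0.00624) at 12 DAP, within the fold limit, and none of the 14 mutant comparisons with WT was called at these timepoints (4 had an adjusted P under 0.05, within the fold limit).

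At 16 DAP, WT had 5.01, 3.92, 5.92, and 3.75 CPM of *vp1*, *nkd1* had 6.27, 6.29, 6.53, and 4.48 CPM, and *nkd2* had 4.20, 6.43, 6.12, and 5.38 CPM. These 3 groups overlapped. The 4 *o2* libraries had 2.03, 3.97, 6.39, and 2.29 CPM, of which 2 lay below every library of the 3 groups and 2 within their range. Lower values were found in the double and triple mutants: *nkd1 o2* had 1.73, 1.85, 1.11, and 2.01 CPM, *nkd2 o2* had 2.62, 1.04, 2.30, and 3.02 CPM, *nkd1 nkd2* had 2.49, 2.37, 3.57, and 2.20 CPM, and the triple mutant had 1.44, 1.68, 2.0, and 1.18 CPM. No library of these 4 groups reached the lowest WT library.

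**Figure D5:**
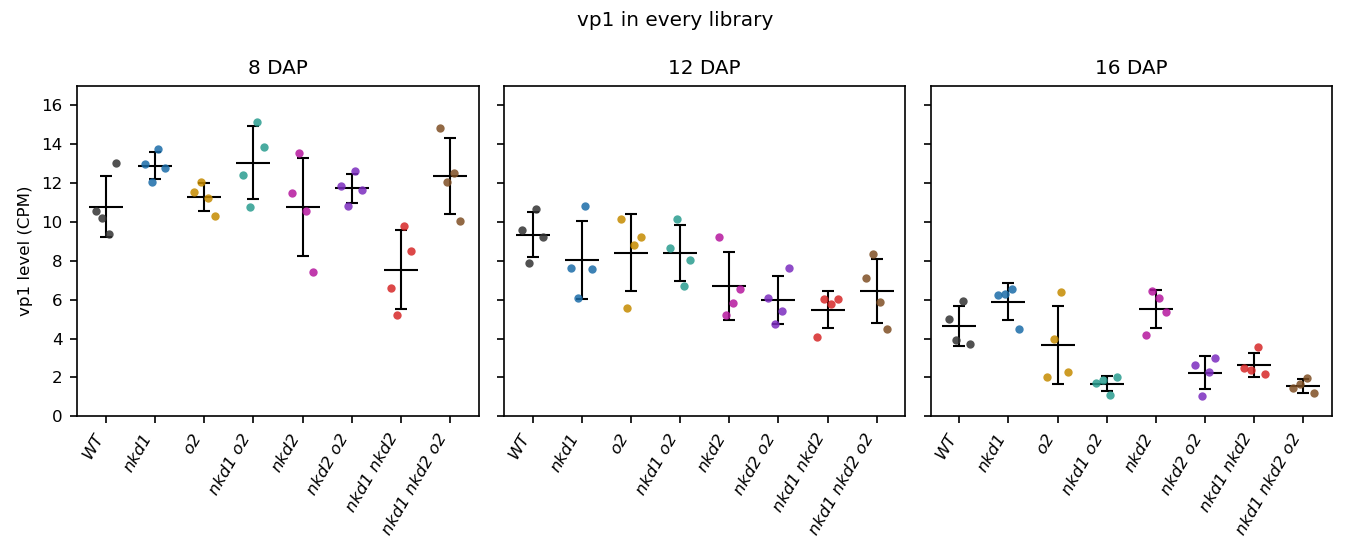
Level of *vp1* (CPM, linear axis) in each library by genotype at 8, 12, and 16 DAP, with points for libraries and bars for the mean and SD of 4. Levels are lowest at 16 DAP, down to 1.57 CPM in the triple mutant against 4.65 CPM in WT.

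Against WT at 16 DAP, *vp1* fell by 1.58 on the log2 scale in the triple mutant (SE 0.313, adjusted P 0.000109), by 1.48 in *nkd1 o2* (SE 0.314, adjusted P 0.000368), and by 1.07 in *nkd2 o2* (SE 0.310, adjusted P 0.00828). Over all genes, 8.06%, 9.29%, and 12.1% of comparisons with WT were called at 8, 12, and 16 DAP. The *nkd2 o2* call was lost without replicate 2 (adjusted P 0.0777) or 3, where the fold dropped below the limit. By allele, *o2* lowered *vp1* in the *nkd1* background (log2FC −1.81, SE 0.315, adjusted P 3.57e-05) and in the *nkd2* background (−1.32, SE 0.309, adjusted P 0.00108), without overlap between the groups. The latter was just within the fold limit without replicate 2 (adjusted P 0.0450). The *o2* log2FC was −0.36 (SE 0.304, adjusted P 0.399) in the WT background and −0.79 (SE 0.310, adjusted P 0.0554) in the *nkd1 nkd2* background, where the groups did not overlap although the comparison was not called. The mean *o2* effect on *vp1* at 16 DAP was −1.07 (SE 0.155, adjusted P 8.93e-07), the only mean effect of 9 that was called. Of all genes, 13.0% had a mean *o2* effect called at 16 DAP.

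With normal *o2*, *vp1* at 16 DAP was also lower in *nkd1 nkd2* than in either *nkd* single mutant. The means of *nkd1* (5.89 CPM) and *nkd2* (5.53 CPM) lay above that of WT (4.65 CPM). Against WT, *nkd1 nkd2* had a log2FC of −0.79 (adjusted P 0.0451), within the fold limit and not called. In *o2* endosperm, the triple mutant was not called against *nkd2 o2* (log2FC −0.51) or *nkd1 o2* (log2FC −0.0997). The log2FC of *nkd1 nkd2* was −1.12 against *nkd1* (SE 0.308, adjusted P 0.00626) and −1.05 against *nkd2* (SE 0.307, adjusted P 0.00800), and that of *nkd1 o2* against *o2* was −1.13 (SE 0.310, adjusted P 0.00664). The last was lost without replicate 3 (log2FC −0.56, adjusted P 0.228), the replicate with the highest *o2* library, and the comparison with *nkd2* fell short of a call without replicate 2 or 4. The effects of all 3 alleles on *vp1* differed between backgrounds at 8 and 16 DAP, with adjusted P values from 0.0138 to 0.0443, and between 0 and 6 such tests of 9 passed when a replicate was left out. The marker sums beside these *vp1* levels at 16 DAP were 4215 to 8463 CPM in *nkd1 o2*, 7252 to 14456 CPM in *nkd2 o2*, and 44696 to 68136 CPM in *nkd1 nkd2*, and their part in the *vp1* result was not tested. In the *o2* genotypes these sums cannot separate less starchy endosperm from the loss of O2.

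From 8 to 16 DAP, *vp1* fell by 1.21 on the log2 scale in WT (SE 0.239, adjusted P 7.44e-06) and was called lower in 7 of 8 genotypes. The falls were larger in *nkd1 o2* (log2FC −2.96, SE 0.254) and in the triple mutant (−2.97, SE 0.253), and *nkd2* at −0.96 (SE 0.236) stayed within the fold limit. Between 8 and 12 DAP no genotype was called, and between 12 and 16 DAP 6 of 8 were called lower, where 38.7% (8 to 16 DAP), 25.6% (8 to 12 DAP), and 11.8% (12 to 16 DAP) of comparisons over all genes were called. In WT the last step fell by 1.01 (SE 0.240, adjusted P 0.000416), and it was within the fold limit without replicate 4 (log2FC −0.93), with DESeq2, and with DESeq2 size factors (log2FC −0.98 each). In the order of the 24 group levels every group overlapped with its neighbour, from 13.1 ± 1.87 CPM in *nkd1 o2* at 8 DAP to 1.57 ± 0.347 CPM in the triple mutant at 16 DAP. The genes most like *vp1* over these groups were Zm00001d006232 (r = 0.94) and Zm00001d010056 (r = 0.93).

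The 3 regulators therefore did not move together. At 16 DAP in *nkd2*, *r1* was 16.0-fold above WT while *c1* (0.822 ± 0.263 against 0.460 ± 0.363 CPM; adjusted P 0.580) and *vp1* (5.53 ± 0.990 against 4.65 ± 1.01 CPM; adjusted P 0.643) were not called. In *nkd2 o2*, *r1* was high (6.93 ± 1.07 CPM), *c1* was at 0 in 3 of 4 libraries, and *vp1* was lower than in WT. Of the anthocyanin enzyme genes listed, 1 could be matched, *fht1* (flavanone 3-hydroxylase). Its level at 16 DAP was 4.48 ± 5.19 CPM in *nkd2*, 6.18 ± 4.54 CPM in *nkd1 nkd2*, 1.93 ± 1.98 CPM in the triple mutant, and 0.134 ± 0.0954 CPM in WT, and it was 0 in every library of *o2* and of *nkd2 o2*. Replicate 4 of *nkd2* at 16 DAP had 12.3 CPM and the others 1.76, 1.98, and 1.9 CPM. At 8 DAP the order of these groups was different, with *fht1* at 6.48 ± 5.22 CPM in WT, 1.07 ± 0.762 CPM in *nkd2*, 1.68 ± 1.40 CPM in *nkd1 nkd2*, and 0.116 ± 0.127 CPM in the triple mutant. From 8 to 12 DAP, *fht1* was called higher in *o2* (log2FC 2.13, adjusted P 0.0441), where *c1* and *r1* had no read at 12 DAP. It was also called higher in *nkd1 o2* and the triple mutant. From 12 to 16 DAP it was called lower in WT, *nkd1*, *o2*, *nkd1 o2*, and *nkd2 o2*, and not in the other genotypes. Over all genes, 25.6% and 11.8% of such comparisons were called. How *fht1* depends on *c1* and *r1* was not tested.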

How the data were processed

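Whole-endosperm RNA was sequenced by the authors from TruSeq libraries as 150-bp paired reads, aligned to B73 RefGen_v4 with HISAT2 2.1.0, processed with SAMtools 1.9 and counted per gene with HTSeq 0.11.1 (StringTie 1.3.6 is also named). The deposited values are raw counts per gene, 1 table per library, with no normalization. The counting mode, strand setting and annotation release are not given in the sources used here, so reads of overlapping or near-identical genes are uncertain. Rows that name no gene held 13.4% to 29.0% of the table reads and were left out.

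For each timepoint, the 32 libraries were fitted in edgeR 4.0.16 (R 4.3.3) with TMM, filterByExpr and the quasi-likelihood test, and P values were adjusted (Benjamini-Hochberg) over 25467, 24504 and 24239 genes at 8, 12 and 16 DAP. Timepoints were compared in a fit of all 96 libraries (27328 genes). A call needed an adjusted P under 0.05 and an absolute log2FC above 1. Levels are CPM with TMM over 96 libraries. The ratios of summed reads carry exact 95% counting intervals, and groups at 0 were set to 3 reads. The members, lists and tests were chosen with earlier results of these data known. Named were the 3 genes, the mutated genes, list members that could be matched by symbol (1 anthocyanin enzyme, 3 starchy endosperm markers, none of the abscisic acid and maturation, aleurone, transfer layer, embryo or maternal lists) and, for each of the 3, the 2 genes most alike by Pearson's r. The alternatives were DESeq2 1.42.0, its size factors, no filter, a replicate block, each replicate left out, other sets of libraries in the fit, and, chosen after seeing the data, 3 fits without single libraries and 1 window of identifiers. No pair of libraries within a group agreed within sampling noise (chi-square per gene at least 8.71). The steps were tested on simulated data. No sequence or position is given, since none was matched to these identifiers here.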

Additional observations from a re-analysis of the deposited data

Results flagged for a closer look

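In 9 of the 72 sets of 4 libraries (24 groups, 3 genes), 1 library stood apart from the others by Dixon's criterion. Chance meets it in about 1 set of 20 for normally distributed values, a rate that does not hold for sets of very few reads. Sets with no read in any library could not meet it. For *vp1* these were *nkd1* at 16 DAP, where replicate 4 had 4.48 CPM and the others 6.27 to 6.53 CPM, and *nkd1 nkd2* at 12 DAP, where replicate 1 had 4.08 CPM and the others 5.79 to 6.06 CPM. For *r1* in *nkd2 o2* at 16 DAP, replicate 3 had 8.52 CPM and the others 6.21 to 6.5 CPM, so it was the highest of a group that was called higher than *o2* in any case. For *c1* in *nkd1 nkd2* at 16 DAP, replicate 3 had 0.677 CPM (22 reads) and the others 0.270 to 0.321 CPM.

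The other 5 rested on 4 reads or fewer. In *nkd2 o2*, *c1* was at 0.0911 CPM (4 reads) in replicate 3 at 16 DAP with no read in the others, and at 0 in replicate 3 at 8 DAP with 1 read (0.0137 to 0.0158 CPM) in each of the others. A single read stood alone for *c1* in *nkd2* replicate 1 at 8 DAP (0.0142 CPM), for *r1* in *nkd1 o2* replicate 1 at 8 DAP (0.0144 CPM), and for *r1* in *nkd1 o2* replicate 2 at 12 DAP (0.0189 CPM).

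The effect of an allele differed between the 4 backgrounds in 16 of 27 tests by edgeR's quasi-likelihood F test with Benjamini-Hochberg adjustment, a test that 21.4% to 49.0% of all genes passed. For *r1* the adjusted P values were 0.0371 (*nkd1*) and 0.0292 (*nkd2*) at 8 DAP, 0.0355 (*o2*) at 12 DAP, and 0.000194 (*nkd1*), 3.52e-05 (*nkd2*), and 0.000736 (*o2*) at 16 DAP. For *vp1* they were 0.0293, 0.0138, and 0.0443 for *nkd1*, *nkd2*, and *o2* at 8 DAP and 0.0229, 0.0389, and 0.0339 at 16 DAP. For *c1* they were 0.00402 (*nkd1*) and 0.00598 (*o2*) at 12 DAP and 0.0155 and 0.0281 at 16 DAP. The 3 *r1* differences at 16 DAP passed under every alternative, and each of the other 13 was lost in at least 1.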

How the results depend on the processing

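The 12 *nkd2* effects on *r1* were called in every fit run, and no result that was called changed sign. Of the counts of calls under the alternatives, 224 stayed within 1.5 times the count reported and 28 did not. With all 96 libraries in each fit, *r1* had 1 *o2* effect called in place of 2, and 3 differences between backgrounds in place of 6, as had *vp1*. Without WT replicate 1 at 12 DAP, 1 *nkd2* effect on *c1* was called in place of 0, and without WT replicate 4 at 16 DAP, or the 3 libraries at 16 DAP with no *c1* read, *vp1* had 3 differences between backgrounds in place of 6. Within 10 numbers on each side of *r1*, 1 gene was called in 1 direction in all 4 backgrounds at 8 and at 12 DAP in place of 2, and in the window below *nkd2* it was 5 at 12 DAP in place of 2 and 6 at 16 DAP in place of 3. The cause was not tested, other than that these windows hold other genes.

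With each replicate left out in turn, mutant comparisons with WT called, of 21, ranged from 2 to 3 for *vp1*, 5 to 6 for *c1*, and 14 to 16 for *r1*. Called *nkd1* effects ranged from 1 to 2, 1 to 3, and 3 to 5 for *vp1*, *c1*, and *r1*, *nkd2* effects from 1 to 2, 0 to 0, and 12 to 12, and *o2* effects from 1 to 2, 4 to 5, and 1 to 2. Mean effects ranged from 1 to 1, 4 to 5, and 3 to 4, differences between backgrounds from 0 to 6, 0 to 3, and 3 to 5, and time comparisons from 12 to 14, 4 to 6, and 6 to 7.

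Replicate numbers did not pair the libraries: same-numbered libraries' deviations from their group means had a median r of −0.00456, −0.00264, and 0.00292 at 8, 12, and 16 DAP. With the replicate block, every count of calls stayed within 1.5 times; the *o2* differences between backgrounds of *vp1* at 8 DAP (adjusted P 0.0508) and *r1* at 12 DAP (adjusted P 0.0524) were lost, and *r1* in *nkd1 nkd2* against *nkd2* at 12 DAP was gained (log2FC 1.02). Ranked by Spearman's rho, 0 of the 3 genes most like *vp1* and 1 of 3 for *r1* remained, and with a prior count of 0.5, 1 of 3 for *c1*. DESeq2 gave no adjusted P for 3 of 297 contrasts. Depth limited *c1* and the low values of *r1*: with 38 reads or fewer in a library, an absent count shows only that the transcript was not detectable at this depth.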
